A study of Homo sapiens with 12 samples.

Results

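The human genes named ZNF and a number encode zinc finger proteins, most of them transcription factors that read DNA through a row of C2H2 fingers, each folded around a zinc ion held by cysteines and histidines. The genes described here are the well-expressed ones in MOLM-13, an established human acute myeloid leukaemia line with a t(9;11) translocation and the MLL-AF9 fusion. They were selected on their measured level. A symbol was taken when it consisted of ZNF, a number and at most 1 further letter, ZNF117 was left out, and the mean over the 12 libraries had to reach 100 normalised counts. This left 151 of 509 such symbols, among 46639 symbols in the matrix. Of the 358 symbols under the limit, 54 were at 0 in all 12 libraries. The limit uses the level over all libraries and not a difference between groups, so levels are given as a description and only differences were tested.

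Total RNA was sequenced from 4 groups of 3 libraries each, which the labels call technical triplicates of 1 experiment, so p-values measure the spread between these libraries only. The untreated group received no drug and carries the label 96 h, while the study's design text gives a harvest at 72 h for the experiment. The decitabine (DAC) group received 100 nM of this hypomethylating nucleoside, which traps DNA methyltransferases, and was harvested at 72 h. The ATRA group received 1 µM all-trans retinoic acid, the ligand of the retinoic acid receptors, with the label 72 h, and the DAC+ATRA group received both drugs at these doses with the same label. By the study's methods ATRA was added after the DAC doses had begun, so its exposure was shorter than the labelled time. All groups were the same line grown in RPMI medium with fetal calf serum and, per the labels, GM-CSF, with no engineered allele. A vehicle control was not analysed here, and untreated time and treatment cannot be told apart where the labels differ in hours.

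ZNF proteins fall into those with and those without a Krüppel-associated box (KRAB). KRAB zinc finger proteins recruit TRIM28 (KAP1) and with it SETDB1, HP1 proteins and histone deacetylases, and are known for silencing retroelements and for holding imprints. Their genes arose by repeated duplication and lie in clusters, above all on chromosome 19. Proteins without KRAB have mixed roles, from promoter activators to partners of corepressor complexes, RNA-binding proteins and ribosome assembly factors.

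Among the 151 members, 88 had a KRAB match in the translated GENCODE coding sequence, 62 had none, and ZNF720 had no translated protein. A SCAN domain, which pairs such proteins with each other, was found in 8 members, 2 of them with KRAB. The number of C2H2 matches ran from 0 to 30 with a median of 10, and the median was 12 with KRAB and 7 without. ZNF185, ZNF330 and ZNF862 had no C2H2 match, so that the name ZNF does not stand for this finger in every member. Chromosome 19 carried 68 members, of which 59 had KRAB, and 83 lay on 19 other chromosomes. Members less than 250 kb apart formed 23 runs with 90 members in all, and the longest, with 17 members, spanned 57191500 to 57916610 on chromosome 19 (hg38). All 151 are protein-coding in GENCODE.

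Of the members, 132 had a promoter in the RefSeq table (GRCh38.p14, 250 bases before to 50 after the start). Their windows held 4 to 53 CpG dinucleotides, the sites that DAC can leave unmethylated, with a median of 22 against 14 over all 27305 promoters. The median was 19 with KRAB and 25 without. The retinoic acid receptor motif AGGTCA, searched on both strands, was in 12.1% of the members' windows and in 13.9% of all. Direct repeats of it with 5 or 2 bases between them were in none of the members' windows. Over all 27305 promoters this exact search found 1 window with the 5-base spacing and 0 with the 2-base spacing. It therefore cannot tell the members from other genes. The promoters of 4 members, chosen after their changes were seen, are shown for reference. ZNF350 was the member called higher with DAC in the fit of all libraries. ZNF558 fell by the largest amount with DAC among members with a window in the table. ZNF689 and ZNF768 are neighbours on chromosome 16 that rose in DAC+ATRA. Capitals mark CpG. ZNF350 lies at chr19:51986791-51987090, ZNF558 at chr19:8832255-8832554, ZNF689 at chr16:30610384-30610683 and ZNF768 at chr16:30526517-30526816, all on the minus strand and written 5′ to 3′ along the gene.
ZNF350: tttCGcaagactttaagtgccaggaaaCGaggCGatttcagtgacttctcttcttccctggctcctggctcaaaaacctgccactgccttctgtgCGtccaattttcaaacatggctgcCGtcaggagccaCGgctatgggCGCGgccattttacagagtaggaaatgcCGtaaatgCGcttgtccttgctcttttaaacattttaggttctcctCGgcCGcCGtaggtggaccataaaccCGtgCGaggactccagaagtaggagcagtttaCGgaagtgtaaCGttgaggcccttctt
ZNF558: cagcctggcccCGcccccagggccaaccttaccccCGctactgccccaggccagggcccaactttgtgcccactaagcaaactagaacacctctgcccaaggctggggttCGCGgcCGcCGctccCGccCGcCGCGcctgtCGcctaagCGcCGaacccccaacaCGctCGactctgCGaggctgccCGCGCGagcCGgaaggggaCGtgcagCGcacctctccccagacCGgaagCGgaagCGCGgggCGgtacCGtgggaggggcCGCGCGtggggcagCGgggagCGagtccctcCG
ZNF689: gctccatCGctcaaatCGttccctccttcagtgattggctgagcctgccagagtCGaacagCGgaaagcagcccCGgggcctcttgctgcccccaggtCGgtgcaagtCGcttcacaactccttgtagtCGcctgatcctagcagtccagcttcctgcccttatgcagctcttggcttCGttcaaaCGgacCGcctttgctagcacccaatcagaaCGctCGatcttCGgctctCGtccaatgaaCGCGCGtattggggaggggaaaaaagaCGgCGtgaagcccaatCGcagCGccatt
ZNF768: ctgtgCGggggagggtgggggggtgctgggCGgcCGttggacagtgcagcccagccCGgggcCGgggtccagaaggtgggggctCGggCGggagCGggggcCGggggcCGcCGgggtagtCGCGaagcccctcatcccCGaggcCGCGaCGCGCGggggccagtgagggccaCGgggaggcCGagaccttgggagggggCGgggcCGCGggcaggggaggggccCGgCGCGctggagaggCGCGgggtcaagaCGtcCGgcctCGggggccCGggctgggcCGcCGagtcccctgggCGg
The windows of ZNF350 and ZNF689 held 17 and 22 CpG, and those of ZNF558 and ZNF768 held 34 and 36. Methylation was not measured in these libraries.

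The libraries held 4.67 to 11.9 M assigned reads, with 8.95 to 11.9 M untreated, 4.67 to 6.96 M with DAC, 8.36 to 10.7 M with ATRA and 5.61 to 7.16 M with DAC+ATRA. The DAC and DAC+ATRA libraries were thus the shallowest. Even so, the lowest read number of any member in any library was 35. DAC replicate 3 stood apart from the other DAC libraries over the members, which was noticed after their values were seen. It lay nearest to untreated, with a median log2 ratio of -0.07 over the members against -0.30 and -0.26. Leaving it out was therefore bound to enlarge the members' DAC shift. The fit without it shows dependence on 1 library and is no second result. The main counts and medians with DAC that change when it is left out are given both ways. So are the calls with DAC against untreated that change for members named by rule. All 11 myeloid markers examined had a median over 10 normalised counts. Of 11 markers of other cell types 4 did so (CD3D, KRT8, COL1A1 and PECAM1), and 3 were at 0 in every library. The summed level of the latter list was 3644 to 4611 untreated, 5586 to 6227 with DAC, 1512 to 1633 with ATRA and 1873 to 2252 with both. It was mostly PECAM1, which monocytic cells also make. Its part in the results was not tested.

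The mean level of a member ran from 103 to 2909 normalised counts with a median of 290. ZNF395 had the highest mean. In untreated cells it was followed by ZNF451, ZNF121, ZNF516, ZNF22 and ZNF267 (named here after their values were seen). The values are counts and were not divided by length, so this order is of counts and not of expression between genes. Just inside the limit lay ZNF83, ZNF449 and ZNF7 with means of 103, 104.2 and 104.3, and just outside it ZNF865, ZNF668 and ZNF44 with 99.9, 96.5 and 95.5.

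Summed over the 151 members, untreated libraries held 78012, 75256 and 72862 normalised counts. DAC libraries held 59965, 61379 and 69531, all below the lowest untreated library. ATRA libraries held 71346, 72456 and 71512, and DAC+ATRA libraries 67692, 66202 and 66009. The group means were 75377 ± 2577 untreated, 63625 ± 5164 with DAC, 71771 ± 599 with ATRA and 66634 ± 921 with both (SD, n = 3 each). In terms of the untreated mean, this was 84.4% with DAC (80.5% without DAC replicate 3), 95.2% with ATRA and 88.4% with both. ZNF395, the member with the highest mean, contributes to all of these differences. It fell in all treatments (values below), and with ATRA by more than the whole sum did. The sums are weighted to members with high counts, and with ATRA the sum does not describe a typical member. The share of all assigned reads was 0.972 to 1.07% untreated, 0.788 to 0.918% with DAC, 0.911 to 0.959% with ATRA and 0.862 to 0.904% with DAC+ATRA. In each library the median log2 ratio to the untreated mean was taken over the members. It was -0.30, -0.26 and -0.07 in the DAC libraries, while over all 10640 genes tested it was 0.03, -0.00 and 0.00. The group with the highest mean was untreated for 58 members, and the group with the lowest was DAC for 63 (61 and 74 without DAC replicate 3).

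**Figure D1:**
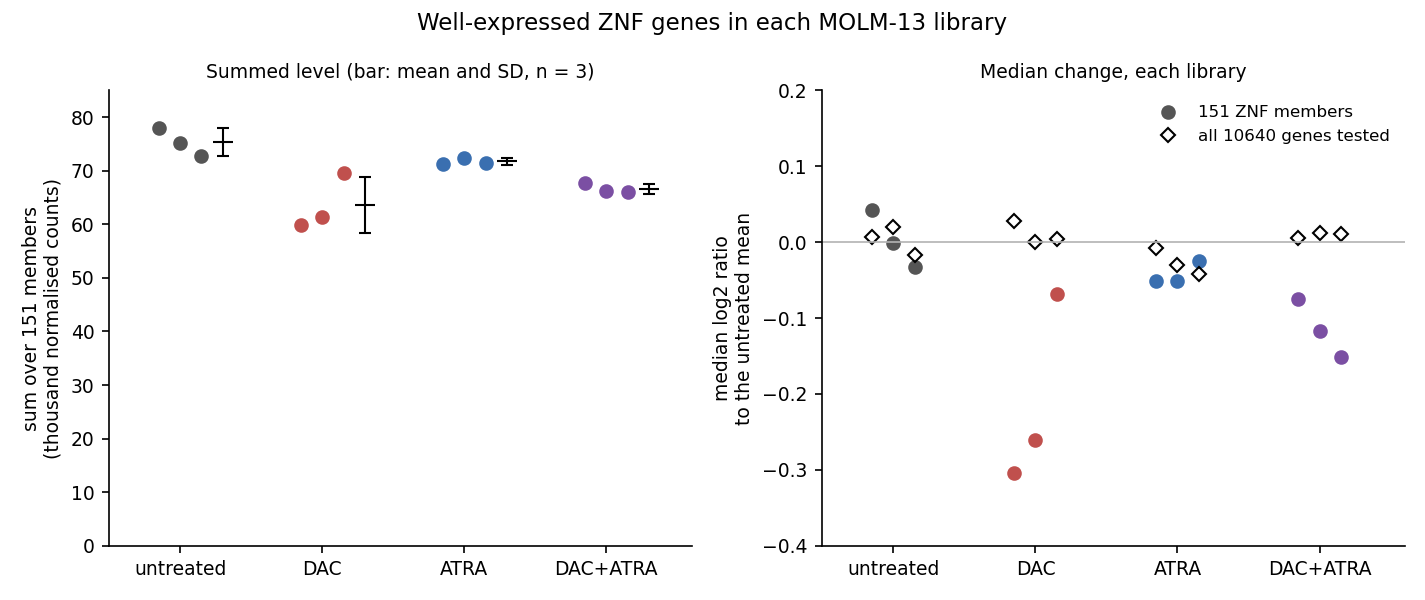
Left, normalised counts summed over the 151 members in each library (points) with the group mean and SD (bars, n = 3); right, median log2 ratio to the untreated mean over the members (filled) and over all genes tested (open). The DAC libraries lie between 59965 and 69531, below the untreated libraries, and DAC replicate 3 is the highest of them.

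DAC was compared with untreated to see which genes the hypomethylating drug alters on its own. ZNF members were mostly a little lower. ZNF395, ZNF558 and ZNF292 fell by about 2-fold, and ZNF350 was the member called higher in the fit of all libraries. The median log2 change was -0.21 against -0.00 over all genes. Of the 151, 118 had a negative difference. By limma on log2(normalised count + 1), with Benjamini-Hochberg adjusted p under 0.01 over 10640 protein-coding genes, 11 members were called (7.28%), 1 higher and 10 lower. The background was 7.97% of all genes called, 4.3% higher and 3.67% lower. The share called in either direction was thus near that of all genes. By direction, 0.662% of the members were higher and 6.62% lower. The libraries of both groups did not overlap for 52 members (34.4%) and for 30.4% of all genes, the 11 called members and 99.6% of all called genes included. Without DAC replicate 3, 33 members were called (21.9%), 3 higher and 30 lower, with a median of -0.27. In that fit the background was 13% of all genes, 6.6% higher and 6.42% lower. Of the 11, 10 were among the 33 and ZNF496 was not. Named members newly among the 33 were ZNF710 and ZNF428, higher by 0.68 and 0.56 on the log2 scale. ZNF267, ZNF449 and ZNF597 were newly called lower, by 0.90, 0.72 and 0.70. ZNF148, ZNF224, ZNF451 and ZNF765 are given by role below. DESeq2 on all libraries also called ZNF710 and ZNF428 with DAC. Without untreated replicate 2 the number was 4, with a background of 4.78%. The DAC libraries were also shallower than the untreated ones, and the part of depth was not tested.

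ZNF395, a hypoxia-inducible transcription factor without KRAB, had the highest level of all members. Untreated libraries gave 6746, 6168 and 5585 normalised counts. DAC libraries gave 2510, 2674 and 2919, which was 2.28-fold lower (log2 change -1.19 ± 0.18 SE, adjusted p = 0.00013). It was the member with a called change of over 2-fold. It lies on chromosome 8 from 28345590 to 28402701 on the minus strand (hg38, GENCODE), where FBXO16 overlaps it on the same strand and can share reads with it.

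ZNF558, a KRAB gene on chromosome 19 (8806170 to 8832314, minus strand), gave 294, 298 and 296 normalised counts untreated and 154, 147 and 146 with DAC. The libraries within each group lay close together, and the log2 change was -0.99 ± 0.15 (SE, limma adjusted p = 0.0001). ZNF292 (chromosome 6, 87151803 to 87265943, plus strand), a large protein without KRAB in which loss-of-function variants cause a neurodevelopmental disorder, gave 768, 631 and 679 untreated and 288, 397 and 392 with DAC. Its log2 change was -0.96 ± 0.13 (limma adjusted p = 4.4e-05). ZNF283, a KRAB protein on chromosome 19, gave 323, 282 and 304 against 167, 196 and 162, a change of -0.79. The groups were clearly apart for all of them, DAC replicate 3 included.

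The KRAB genes ZNF555 and ZNF791 fell by 0.88 and 0.83 on the log2 scale, but on a wider spread. ZNF555 gave 153, 147 and 144 untreated and 81.4, 56.5 and 111 with DAC. For ZNF791 the values were 152, 149 and 169 against 66.2, 76.8 and 132, so that DAC replicate 3 was nearest to the untreated libraries in both. The ZNF791 call (limma adjusted p = 0.0092) was lost in 17 of 25 alternatives and that of ZNF555 in 9. ZNF862, which derives from a DNA transposon and had a KRAB match but no C2H2 match, gave 157, 152 and 161 against 106, 91.0 and 74.0, a log2 change of -0.80 ± 0.17. The call of ZNF862 was lost in 5 of 25 alternatives. The remaining members that fell were ZNF654, ZNF25 and ZNF496, by 0.60, 0.60 and 0.51 on the log2 scale.

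ZNF350 (ZBRK1), a KRAB repressor known as a partner of BRCA1, stood against this. It gave 157, 116 and 112 normalised counts untreated and 235, 204 and 280 with DAC. This was a rise of 1.86-fold (log2 change 0.90 ± 0.18 SE, limma adjusted p = 0.0015) with the lowest DAC library above the highest untreated one. The call was lost in 3 of 25 alternatives. An antisense gene, ZNF350-AS1, overlaps it on the other strand. Its promoter, shown above, held fewer CpG (17) than the median of 28 over the 8 fallen members with a promoter, whose range was 13 to 39, while 123 members not called had a median of 22 and a range of 4 to 53.

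With and without KRAB, the DAC shift was alike in size. The median log2 change was -0.22 over 88 members with KRAB, with 1 higher and 6 lower, and -0.21 over 62 without, with 4 lower. On chromosome 19 it was -0.28, with 56 of 68 negative, and elsewhere -0.21, with 62 of 83 negative. Members with 12 or more C2H2 matches had a median of -0.29 and those with fewer -0.20. Without DAC replicate 3 the medians were -0.29 with KRAB (1 higher and 17 lower) and -0.23 without (2 higher and 13 lower). They were -0.35 on chromosome 19 and -0.19 elsewhere, and -0.35 with 12 or more C2H2 matches and -0.23 with fewer. The difference between these classes was not tested. Among the 358 ZNF symbols under the level limit, 202 could be tested, with a median of -0.13, 1 higher and 1 lower (-0.08, 2 and 4 without DAC replicate 3).

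**Figure D2:**
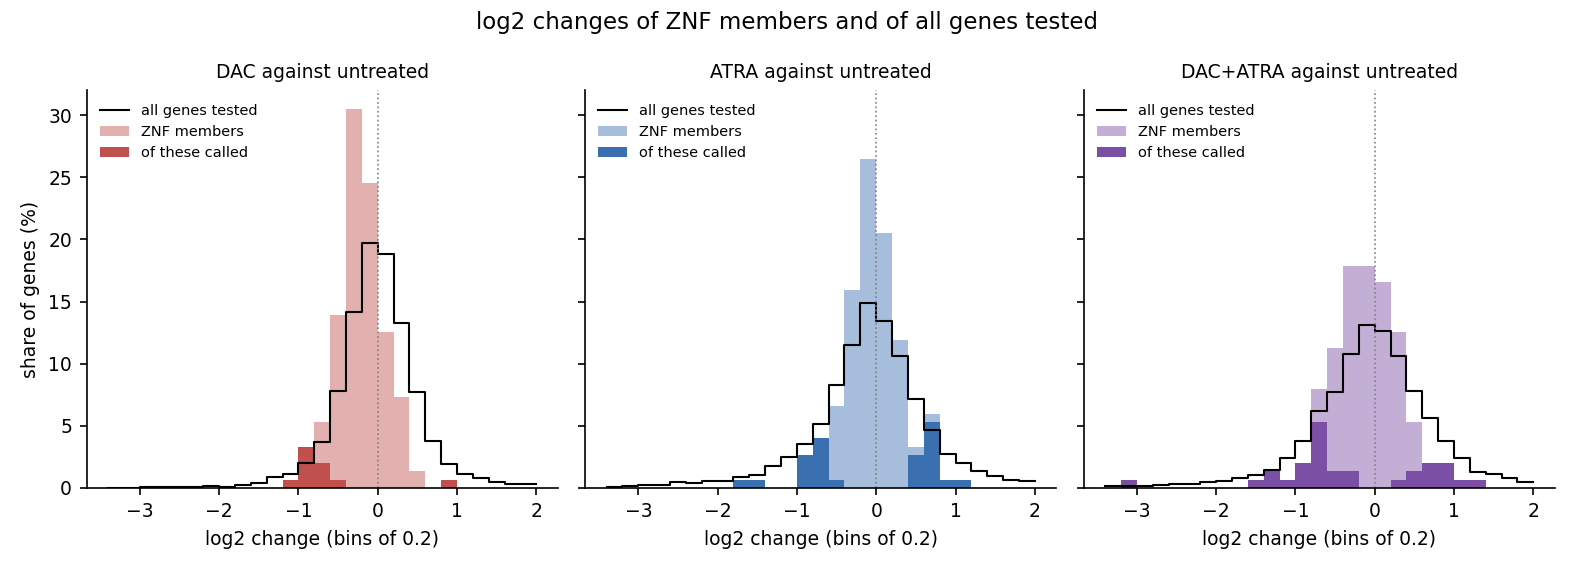
Share of genes in bins of 0.2 of the log2 change, for the members (light bars), the members called at limma adjusted p under 0.01 (dark bars) and all genes tested (line, from -3.4 to 2), in each treatment against untreated. With DAC the members lie to the left of all genes (median -0.21 against -0.00), and in all 3 comparisons the members lack the wide tails of all genes, except for ZNF395 at -3.13 with both drugs. All genes tested include genes under the level limit of the members.

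ATRA was compared with untreated in the same way. Members changed in both directions: ZNF710, ZNF333 and ZNF335 rose, and ZNF395, ZNF367 and ZNF670 fell. In all, 14 were higher and 13 lower (17.9% called), against a background of 26.0% of all genes, 12.1% higher and 14% lower, so that a smaller share of the members was called than of all genes. The median log2 change was -0.05 over the members and -0.04 over all genes. The members' median took the other sign (0.04) over the 54 members with a single transcript row. Changes of over 2-fold were seen in 1.99% of the members, against 18.2% of all genes (14.7% when also called). All genes tested include genes under the members' level limit. Among the 202 ZNF symbols tested under that limit, 10.9% changed by over 2-fold. Without untreated replicate 1 the number called was 16, with a background of 20.8%.

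ZNF710 (chromosome 15, 90001324 to 90082206, plus strand, without KRAB) led the rise. It gave 301, 306 and 283 normalised counts untreated and 644, 712 and 653 with ATRA, 2.25-fold higher (log2 change 1.17 ± 0.14 SE, limma adjusted p = 2.6e-06). ZNF333, a KRAB gene, gave 268, 276 and 254 against 498, 464 and 523, a log2 change of 0.89. It overlaps ADGRE2 and ADGRE3, genes of myeloid surface receptors, on the other strand. ZNF335, a component of histone H3 lysine methyltransferase complexes whose loss causes microcephaly, gave 652, 684 and 679 against 1094, 1119 and 1256, a log2 change of 0.78. All ATRA libraries of these genes lay above all untreated ones.

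ZNF267 and ZNF708, both with KRAB, rose by 0.77 and 0.75 on the log2 scale. ZNF267 gave 1878, 1734 and 1477 untreated and 3143, 2663 and 2828 with ATRA. ZNF708 gave 712, 642 and 637 against 1227, 1058 and 1077. ZNF597, an imprinted gene on chromosome 16, gave 303, 339 and 342 against 582, 555 and 505, a log2 change of 0.74. The further members that rose, with log2 changes of 0.42 to 0.71, were ZNF627, ZNF768, ZNF428, ZNF552, ZNF330, ZNF689, ZNF675 and ZNF106. Of these, the ZNF768 call (log2 change 0.68, limma adjusted p = 0.0094) was lost in 15 of 25 alternatives, including without any 1 of the untreated or ATRA libraries.

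ZNF395 also fell with ATRA, to 1444, 3011 and 1737 normalised counts, a log2 change of -1.65 ± 0.18 (SE, limma adjusted p = 5.6e-07) with a wide spread between the ATRA libraries. ZNF367 (chromosome 9, 96385941 to 96418370, minus strand, without KRAB) gave 747, 752 and 629 untreated and 339, 273 and 160 with ATRA. It was 2.87-fold lower (log2 change -1.52, limma adjusted p = 5.1e-06). ZNF516, which binds corepressor complexes with the histone demethylase LSD1, gave 2044, 1970 and 2095 against 974, 1149 and 1151, a log2 change of -0.90 ± 0.10. These were called in every alternative that was run.

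Members with KRAB that fell with ATRA were ZNF670, ZNF749, ZNF445, ZNF283, ZNF350, ZNF616, ZNF823, ZNF441 and ZNF530. ZNF670 gave 206, 156 and 176 untreated and 91.4, 84.1 and 91.1 with ATRA, a log2 change of -1.0. It shares its strand with a read-through gene, ZNF670-ZNF695. ZNF445, a repressor that maintains imprints, gave 175, 179 and 196 against 94.1, 96.0 and 118, a log2 change of -0.83. ZNF350, which rose with DAC, gave 77.0, 81.9 and 62.7 with ATRA, below the untreated 157, 116 and 112 (log2 change -0.78, limma adjusted p = 0.0015). ZNF749 and ZNF283 changed by -0.85 and -0.80. By class, 7 members with KRAB were higher and 9 lower (median -0.08), and 7 without KRAB were higher and 4 lower (median -0.03).

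**Figure D3:**
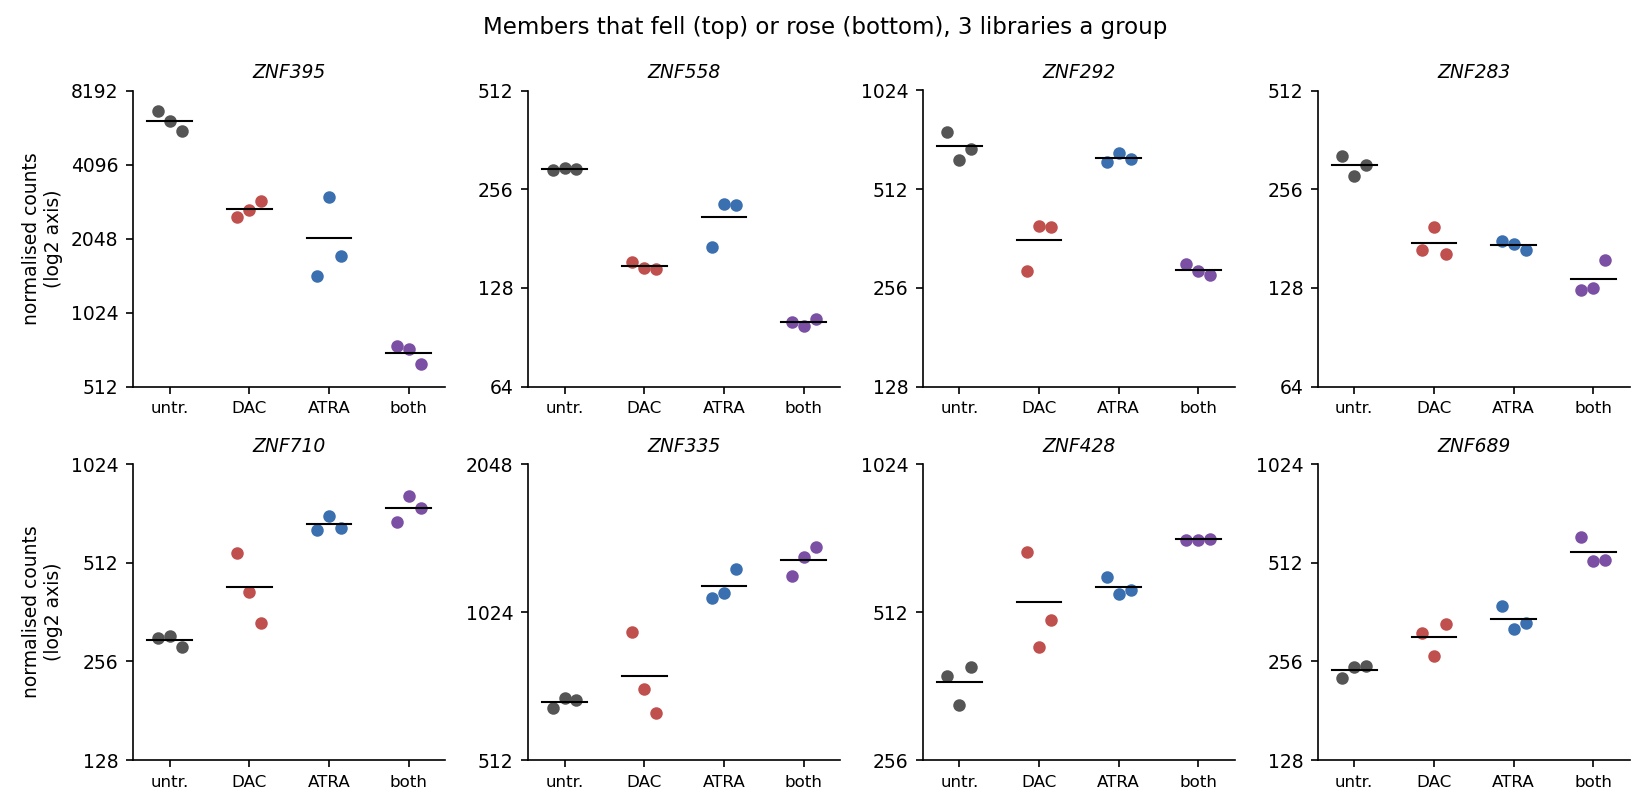
Normalised counts in each library (points) and group means (lines) on log2 axes for 4 members that fell and 4 that rose; untr. is untreated and both is DAC+ATRA. ZNF395 goes from 5585 or more in untreated libraries to 750 or less with both drugs, and ZNF710 from 306 or less to 683 or more.

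DAC+ATRA was compared with untreated to see the outcome of both drugs. ZNF395, ZNF558, ZNF292, ZNF616 and ZNF283 fell by over 2-fold and ZNF710 and ZNF689 rose by over 2-fold. Of the 151 members 31 were called (20.5%), 11 higher and 20 lower. Over all genes the background was 28.9%, with 14.5% higher and 14.4% lower, so the members' share was below it. The median log2 change was -0.14 over the members, with 91 negative, and -0.00 over all genes. It was -0.02 over members with a single transcript row and -0.03 over members with a mean of at least 200. Without DAC replicate 3, which changes only the shared estimate of spread here, 49 were called, 14 higher and 35 lower, and all 31 were among them. The background in that fit was 34.2%.

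ZNF395 was at 750, 729 and 633 normalised counts with both drugs, 8.74-fold below untreated (log2 change -3.13 ± 0.18 SE, limma adjusted p = 6.3e-11). Each DAC+ATRA library was below every library of the other groups. ZNF558 gave 101, 97.9 and 103, with a log2 change of -1.55, and ZNF292 gave 302, 288 and 281, with a change of -1.25. ZNF283 gave 126, 128 and 155, a change of -1.15. ZNF616, a KRAB gene on chromosome 19, gave 291, 289 and 292 untreated and 129, 110 and 140 with both drugs, a log2 change of -1.20 (limma adjusted p = 2.1e-05). ZNF616 gave 154, 207 and 193 with ATRA, where it was called (-0.66, lost in 6 of 25 alternatives). With DAC it gave 141, 231 and 201 and was not called (-0.63, limma adjusted p = 0.019), though DESeq2 called it. ZNF555 fell by 0.97 on the log2 scale with both drugs.

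Among the members that rose, ZNF710 gave 683, 821 and 750 normalised counts with both drugs, 2.52-fold above untreated. ZNF689, a KRAB gene, gave 229, 246 and 248 untreated, 313, 267 and 332 with DAC, 377, 321 and 334 with ATRA, and 613, 520 and 522 with both. This was 2.28-fold (log2 change 1.19 ± 0.13 SE, limma adjusted p = 4.7e-07), with the 3 DAC+ATRA libraries above all others. ZNF428 gave 379, 332 and 395 untreated and 718, 718 and 722 with both, a log2 change of 0.97. It overlaps SRRM5 on the other strand. ZNF335 gave 1211, 1328 and 1388, a change of 0.96. ZNF768 gave 80.9, 95.8 and 87.8 against 158, 171 and 180, a change of 0.94, and ZNF672 gave 547, 447 and 534 against 850, 896 and 901, a change of 0.80.

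Further members that fell with both drugs were ZNF654, ZNF148, ZNF814, ZNF823, ZNF277, ZNF699, ZNF516, ZNF621, ZNF460, ZNF146, ZNF318, ZNF22, ZNF770 and ZNF740, by 0.35 to 0.82 on the log2 scale. The further members that rose were ZNF675, ZNF333, ZNF101, ZNF587 and ZNF106, by 0.36 to 0.68. With KRAB, 5 were higher and 9 lower of 88, and without KRAB 6 were higher and 11 lower of 62. The medians were -0.14 and -0.13.

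DAC+ATRA was next set against the single drugs, to see what the second drug changed. Against DAC, 16 members were called (10.6%), 12 higher and 4 lower, with a background of 18.8%, 9.03% higher and 9.74% lower. The median log2 difference was 0.10 over the members and -0.00 over all genes. ZNF768 was 2.34-fold higher than with DAC alone, where it gave 98.0, 54.9 and 68.6 normalised counts (log2 difference 1.23, limma adjusted p = 7.6e-05). ZNF627 and ZNF689 were higher by 0.95 and 0.86. ZNF395 was lower by 1.94, ZNF367 by 0.95 and ZNF516 by 0.69 on the log2 scale. Without DAC replicate 3, 29 were called (19.2%), 24 higher and 5 lower, and the background was 18.4% of all genes, 9.16% higher and 9.27% lower. Of the 16, 14 were among them, ZNF317 and ZNF672 being lost.

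Against ATRA, 16 members were called (10.6%), 6 higher and 10 lower, with a background of 11.9%, 6.48% higher and 5.45% lower. The median log2 difference was -0.07 over the members and 0.03 over all genes. ZNF350 was 2.37-fold higher than with ATRA alone, at 176, 178 and 172 normalised counts (log2 difference 1.24 ± 0.18 SE, limma adjusted p = 4.5e-05). Against untreated the same DAC+ATRA libraries gave 0.46, which was not called (limma adjusted p = 0.043). ZNF367 and ZNF445 were higher than with ATRA alone by 0.85 and 0.70. ZNF395, ZNF267 and ZNF292 were lower by 1.48, 1.18 and 1.13. ZNF267 gave 803, 1018 and 1635 with DAC and 1366, 1137 and 1319 with both, against the 2663 or more with ATRA. Without DAC replicate 3, which alters only the spread here, 25 were called with a background of 16.7%. Without ATRA replicate 2 or DAC+ATRA replicate 2 there were 8, with backgrounds of 7.65 and 7.69%. The ZNF367 and ZNF445 calls were lost in 5 and 2 of 25 alternatives.

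**Figure D4:**
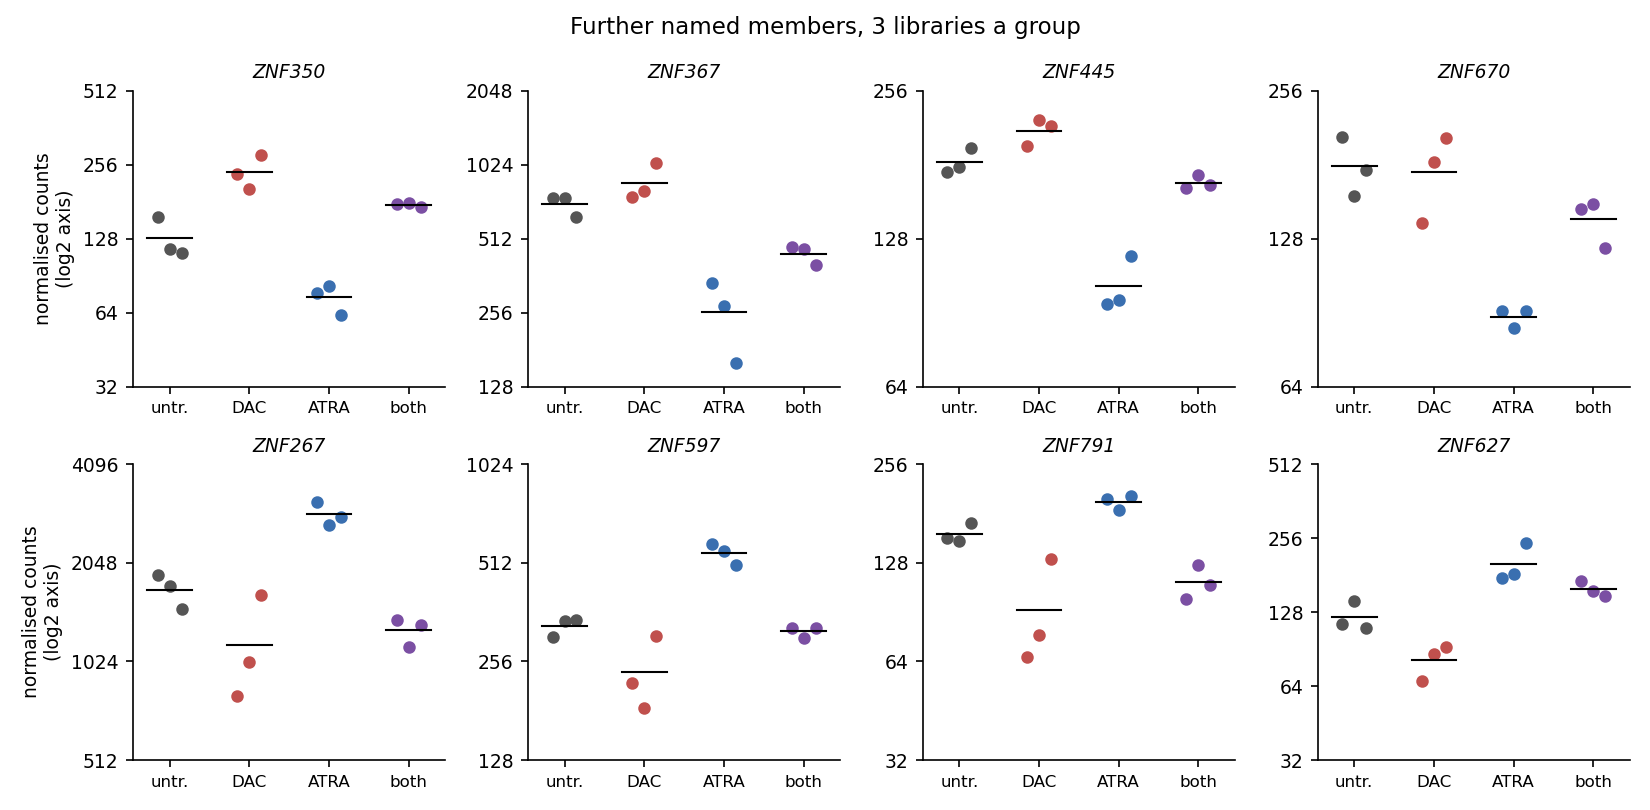
Normalised counts in each library (points) and group means (lines) on log2 axes for 8 further named members; untr. is untreated and both is DAC+ATRA. ZNF350 is highest with DAC (204 to 280) and lowest with ATRA (62.7 to 81.9), and ZNF267 is highest with ATRA (2663 to 3143).

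The interaction asks whether the effect of both drugs differs from the sum of the single effects on the log2 scale. By limma, 0 of 151 members were called, with a background of 1.57% of all genes. At an unadjusted p under 0.05 there were 21 members (13.9%, against 14.7% of all genes), and the lowest limma adjusted p was 0.061, for ZNF526. DESeq2 and edgeR also called 0. Without DAC replicate 3, ZNF264 was called, with a background of 2.44%. The median interaction term was 0.13 over the members, with 42 negative, and 0.03 over all genes. Its SE for a member such as ZNF395 was 0.25, and departures from additivity near that size were not detectable with these libraries.

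The comparisons paired here share no library, so each drug's effect can be set beside its effect on top of the other drug. Over the 151 members, the log2 change with DAC alone and that of DAC added to ATRA were correlated at r = 0.74 (Pearson) and rho = 0.64 (Spearman), with 107 of the same sign, and r was 0.55 over all genes. For ATRA alone and ATRA added to DAC, r was 0.80 and rho 0.76, with 109 of the same sign, and r was 0.82 over all genes. These describe genes measured in the same libraries, which are not independent replicates.

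**Figure D5:**
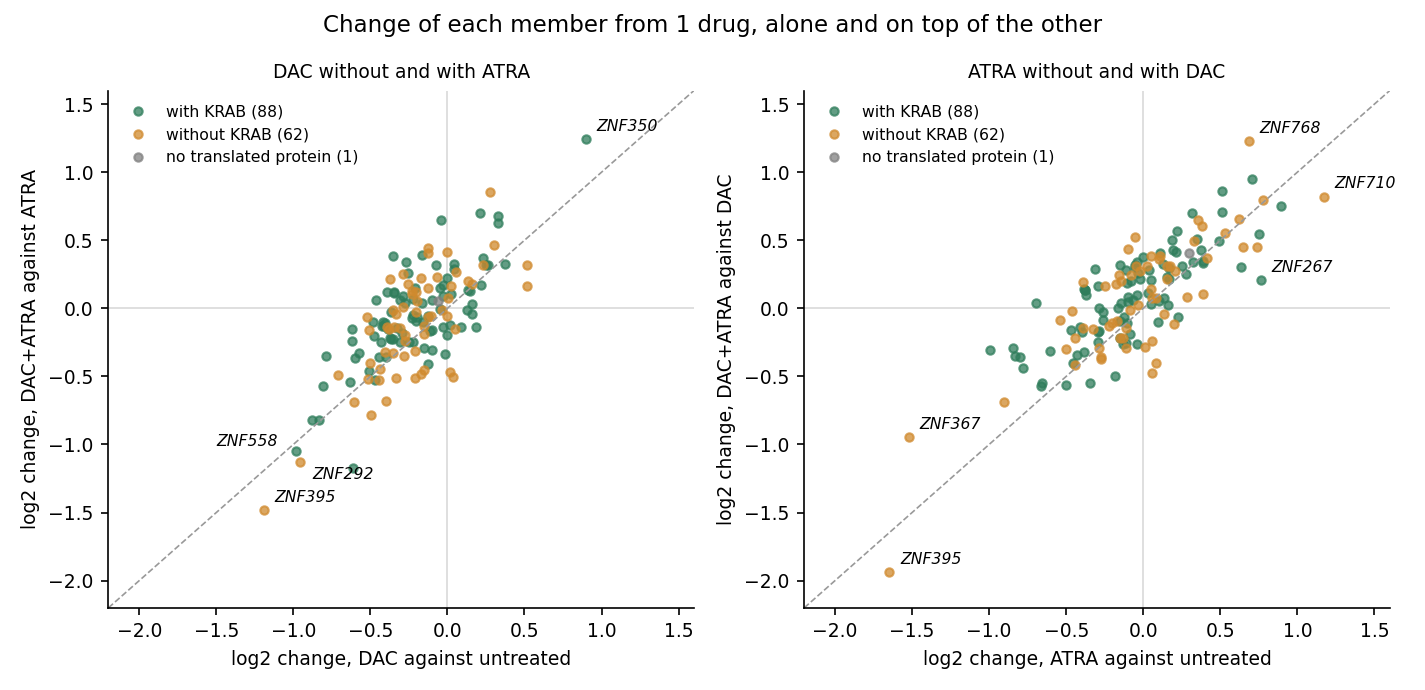
Log2 change of each member from DAC (left) or ATRA (right), alone (x axis) and on top of the other drug (y axis), with KRAB in green and without in orange; the dashed line is equality. ZNF395 lies at the lower end of both plots (-1.19 and -1.48 for DAC, -1.65 and -1.94 for ATRA), and ZNF350 at the upper end of the left one (0.90 and 1.24).

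Members that lie next to each other did not always move together. Of 13 runs with 3 or more members, ATRA gave called members in both directions in 3, higher members alone in 2 and lower members alone in 2. In the run of ZNF627, ZNF823, ZNF441 and ZNF440 on chromosome 19 (11559374 to 11835216), ZNF627 rose by 0.71 with ATRA while ZNF823 and ZNF441 fell by 0.66 and 0.70. ZNF627 gave 114, 142 and 110 normalised counts untreated, 67.4, 86.3 and 92.5 with DAC, 176, 183 and 244 with ATRA and 171, 155 and 149 with both. In the run of ZNF350 to ZNF83 (51964340 to 52690559) ZNF350 rose with DAC, while its neighbour ZNF616 gave -0.63 and was called by DESeq2 but not by limma. In the run of ZNF768, ZNF785, ZNF689 and ZNF629 on chromosome 16 (30524004 to 30787205), ZNF768 and ZNF689 were both higher in DAC+ATRA than in DAC. Related sequences in such clusters can share reads, and the counting per transcript may have left these out. The 17 members of the longest run had a median of -0.16 with DAC, -0.05 with ATRA and 0.10 with both. Called were 0 of them with DAC, 3 with ATRA and 3 with both, against 7.97, 26.0 and 28.9% of all genes. Without DAC replicate 3, ZNF264 and ZNF805 of this run were called with DAC (log2 changes of -0.56 and -0.64), with a background of 13% of all genes.

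By role, 10 listed genes act on RNA or the ribosome, and all were tested, 6 of them as members. Of these 0 were called with DAC and 1 (ZNF106, an RNA-binding protein) with ATRA and with both, at 0.42 and 0.36, of which the latter was lost in 7 of 25 alternatives. Here and in the lists that follow, each call is 1 gene of 7 to 10, against backgrounds of 7.97, 26.0 and 28.9% of all genes with DAC, ATRA and both. ZNF106 gave 1184, 1235 and 1239 untreated and 1683, 1652 and 1549 with ATRA. ZNF830, a splicing factor, was below its ATRA level in the DAC+ATRA libraries by 0.51 on the log2 scale, a call lost in 7 of 25 alternatives. ZNF207, which loads the spindle checkpoint protein BUB3, and ZNF622, which acts in the maturation of the large ribosomal subunit, gave log2 changes of -0.30 to 0.15 against untreated and were not called. ZNF326 and ZNF638 were not called either, with -0.50 to 0.41.

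Of 12 listed partners of chromatin corepressors 9 were tested, of which 0 were called with DAC and 1, ZNF516, was lower with ATRA and with both (-0.90 and -0.63). ZNF687, part of a complex with ZNF592 and ZMYND8, gave 757, 789 and 730 untreated and 770, 630 and 495 with DAC. With both drugs it gave 922, 1050 and 961, higher than with DAC by 0.65 on the log2 scale. ZNF451, a SUMO ligase, gave 2406, 2267 and 2296 untreated and 1688, 1803 and 1959 with DAC. The groups did not overlap, but the change of -0.36 was not called (limma adjusted p = 0.017). With DESeq2 the change passed, as it did at -0.41 without DAC replicate 3 (limma adjusted p = 0.0037), which gives this list 1 call with DAC. ZNF518A and ZNF518B gave log2 changes of -0.23 to 0.15 against untreated and were not called.

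Of 8 listed activators, all tested, 1 was called with ATRA (ZNF335, higher) and 2 with both drugs (ZNF335 higher and ZNF148 lower). ZNF148, which binds GC-rich promoters, gave 1139, 1038 and 788 untreated and 522, 580 and 577 with both, a log2 change of -0.80 (limma adjusted p = 0.0026). With DAC it gave 555, 649 and 1028 and with ATRA 1044, 708 and 711, and neither was called. DAC replicate 3 was within the untreated range, and without it the DAC change was -0.70 and was called (limma adjusted p = 0.0030). The call with both drugs was lost in 3 of 25 alternatives. ZNF131 gave changes of -0.23 to 0.08.

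Of 10 listed repressors of retroelements or keepers of imprints, 9 were tested. With DAC and with both drugs 0 of them were called, and with ATRA 1, ZNF445, was lower. ZNF10 (KOX1), the source of the KRAB domain most used in engineered repressors, gave 85.5, 90.9 and 95.3 untreated and 98.0, 132 and 126 with DAC, a log2 change of 0.37 that was not called. ZNF141 and ZNF765, which bind LINE-1 elements, gave 0.52 and 0.33 less on the log2 scale with both drugs and were not called (limma adjusted p = 0.013 and 0.020). ZNF765 gave 1233, 1158 and 1155 untreated and 837, 932 and 980 with DAC, without overlap (log2 change -0.37, limma adjusted p = 0.023). With DESeq2 it passed, as it did at -0.42 without DAC replicate 3 (limma adjusted p = 0.0073).

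Of 8 listed genes known from leukaemia and blood formation 7 were tested, with 0 called with DAC. ATRA and DAC+ATRA each gave 1 call, ZNF366, which is under the level limit and no member. ZNF224, a KRAB repressor and partner of WT1, gave 1390, 1311 and 1330 untreated, 851, 845 and 1168 with DAC, and 1468, 1880 and 1919 with ATRA. Its changes of -0.51 and 0.38 just missed the threshold with DAC (limma adjusted p = 0.011) and with ATRA (0.027), and it was called with DAC in 7 of 25 alternatives, one of them without DAC replicate 3. ZNF521, a cofactor of early haematopoietic cells, gave 572, 505 and 433 untreated and 367, 351 and 377 with both (log2 change -0.46, limma adjusted p = 0.026). ZNF589, expressed in haematopoietic stem cells, gave -0.11 to 0.14.

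The RNA of genes for proteins that KRAB recruits, and for silencing factors linked to them, was examined beside the members. Of 18 listed genes 17 could be tested, and EHMT2 was at 0 in every library. Levels are lower limits under the counting per transcript, so this does not show that EHMT2 RNA was absent. With DAC 0 were called, against 7.97% of all genes. Without DAC replicate 3 there were 2, TRIM28 higher and TASOR lower (11.8% of the list, against 13% of all genes). In the fit of all libraries TRIM28 gave a log2 change of 0.35 (limma adjusted p = 0.092) and SETDB1 -0.35 (0.24). With ATRA 1 was lower, CBX5 (HP1 alpha), by 0.73 on the log2 scale (5.88% of the list, against 26.0% of all genes). With both drugs 5 were called (29.4% of the list, against 28.9% of all genes): HDAC1 and MORC2 were higher by 0.44 and 0.89, and CBX3 (HP1 gamma), CBX5 and TASOR, of the HUSH complex, were lower by 0.62, 0.46 and 0.72. Against DAC alone, CBX3 was lower by 0.92 and MORC2 higher by 0.82 (11.8% of the list, against 18.8% of all genes). Against ATRA alone, TRIM28 was higher by 0.54 and MPHOSPH8 lower by 0.52 (11.8% of the list, against 11.9% of all genes). The list's median was 0.07 with DAC, -0.10 with ATRA and 0.14 with both.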

How the data were processed

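RNA was depleted of ribosomal RNA and sequenced strand-specifically. The authors used STAR for alignment to hg38, HTSeq for counting and DESeq2 for normalisation, per the study's methods and the submitters' processing notes; versions and the annotation release are not given in the sources used here. The deposited values are a signal: read counts per transcript divided by a size factor for each library. All values were whole multiples of 1 read (tolerance 0.01), so reads were recovered. Reads fitting several transcripts were probably not counted, so levels are lower limits and are not compared between genes.

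Rows were summed per symbol. Protein-coding symbols were kept if 3 or more of the 12 libraries reached 10 normalised counts, and were tested with limma 3.58.1 (trend) on log2(value + 1), all 4 groups in 1 fit, Benjamini-Hochberg adjusted p under 0.01; R was 4.3.3. A called member has an adjusted p under that threshold. Alternatives were edgeR 4.0.16 quasi-likelihood and DESeq2 1.42.0 on the recovered reads, other scalings, pseudocounts (0.1 and 5), filters, samples and members, and each library left out. Using the transcript row with the most reads in place of the sum was chosen after seeing the data. The fit was tested on simulated data.

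Members and lists were chosen with earlier results of these data known. Named were the 6 called members with the largest change in each direction without overlap for each treatment against untreated, 3 for the other comparisons, the members with the highest mean or nearest to the limit, and those of the role lists. KRAB (at most 1 of 7 fixed residues differing), SCAN (at most 4 of 14) and C2H2 patterns were searched in coding sequences translated from GENCODE release 44, which held 88.9% of the rows' transcripts; the RefSeq proteins that the design named were not used here. Promoters are from RefSeq. Of the members, 56 overlap a gene on the same strand and 89 a gene on the other. No 2 libraries of a group agreed within counting noise (chi-square per gene 2.26 to 33.8). The widest gaps were those of DAC replicate 3 to its group (33.8 and 27.4), untreated replicate 3 (27.4 and 22.0) and ATRA replicate 1 (23.7 and 24.5). The fold changes are on the log2(value + 1) scale.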

Additional observations from a re-analysis of the deposited data

How the results depend on the processing

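Of 346 alternative values of member counts and medians, 299 kept their size, and of the 167 medians among them 1 took the other sign (ATRA, members with 1 transcript row). Of the values of named members 0 were reversed. Of 69 called values of named members 46 were called in every alternative. The number called with DAC (11) was 19 by DESeq2, 7 without a filter, 4 with only the compared groups fitted, 30 at adjusted p under 0.05, 1 at over 2-fold, 4 among members with 1 transcript row and 5 among those with a mean of at least 200; it ran from 4 to 33 when 1 library was left out. With ATRA (27) these were 45 at 0.05, 3, 14 and 17, and 16 to 38 with a library left out; the median (-0.05) was -0.0078 by edgeR with TMM, -0.1044 with total-count scaling, 0.0421 with 1 row, and -0.0942 to -0.0260 with a library left out. With DAC+ATRA (31) the number was 57 with only the compared groups and 57 at 0.05, 7 at over 2-fold, 10 with 1 row and 23 to 49 with a library left out; the median was -0.0198 with 1 row and -0.0338 at a mean of at least 200. Against DAC (16) it was 36 at 0.05, 2 at over 2-fold, 8 with 1 row and 10 to 29 with a library left out; the median was 0.2653 with 1 row. Against ATRA (16) it was 28, 5, 5, 10 at a mean of at least 200, and 8 to 25; the median was -0.0103 with 1 row. The interaction had 0, and 1 without DAC replicate 3. For the settings that restrict the members, fewer genes explain part of the lower counts. The causes of the other differences were not tested.

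The replicate numbers did not pair the libraries: same-numbered libraries had correlations of deviations from -0.263 to 0.114 with a median of 0.0046. With the replicate block, 9, 23 and 27 members were called with DAC, ATRA and DAC+ATRA, 13 against DAC, 13 against ATRA and 0 for the interaction. Depth limits the lowest members, at 35 reads or more in each library.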
